A study of Mus musculus with 8 samples.

Results

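Flt1, Kdr, Nrp1, Nrp2, Tie1, Tek, Ednrb and Gap43 are 8 genes of 23091 in single-cell tables of the mouse extraembryonic yolk sac at embryonic day 9.5. They were chosen from earlier results of the same tables, as genes of vessel-lining cells whose transcripts were also looked for in cells with Cx3cr1, the fractalkine receptor of macrophages and their precursors. All 8 were found in the tables. Wild-type C57BL/6N embryos were used, from a specific-pathogen-free colony; the antibodies were against CD45 and CD11b, CD45+ cells went singly into plate wells, and transcripts were counted by mCEL-Seq2, which tags each molecule near its 3′ end. The labels give 4 libraries of A1 and A2 cells (early macrophage precursors) and 4 of EMP cells (erythro-myeloid progenitors), all with 1 batch label; an A1/A2 and an EMP library share each P number of the titles, which the labels do not explain. They do not say whether the libraries came from separate litters, so the spread and the p-values measure differences between these libraries.

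Flt1 and Kdr are receptor tyrosine kinases for vascular endothelial growth factors (VEGF); Kdr carries most of the signal in endothelium, and Flt1 binds Vegfa, Vegfb and Pgf. Nrp1 and Nrp2 are co-receptors for VEGF and class 3 semaphorins, Tek is the angiopoietin receptor and Tie1 its partner without a well-defined ligand of its own. Ednrb is the type B receptor for endothelins, and Gap43, which is no receptor, is a membrane-bound phosphoprotein known from nerve growth cones.

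The stretches just upstream of the RefSeq start sites of the 4 members at the extremes of the pattern are shown because Flt1 and Nrp1 were found in both kinds of cell while Kdr and Tek were nearly absent from wells with Cx3cr1. Each is 250 bases of GRCm38.p6 written 5′ to 3′ in the direction of the gene, at chr5:147726012-147726261 (minus strand) for Flt1, chr8:128358823-128359072 (plus strand) for Nrp1, chr5:75978456-75978705 (minus strand) for Kdr and chr4:94739039-94739288 (plus strand) for Tek. Capitals mark matches, on either strand, to AGGAAG, a core letter run of sites for ETS factors, AGATAA, one for GATA factors, TGACGTCA, the cyclic AMP response element, or GGGCGG, the GC box.
Flt1: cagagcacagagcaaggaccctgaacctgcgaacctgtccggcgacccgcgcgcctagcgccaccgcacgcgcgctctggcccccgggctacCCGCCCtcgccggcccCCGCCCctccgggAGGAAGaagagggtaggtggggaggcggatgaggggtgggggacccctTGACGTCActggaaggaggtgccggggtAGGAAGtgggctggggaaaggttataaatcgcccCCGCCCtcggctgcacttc
Nrp1: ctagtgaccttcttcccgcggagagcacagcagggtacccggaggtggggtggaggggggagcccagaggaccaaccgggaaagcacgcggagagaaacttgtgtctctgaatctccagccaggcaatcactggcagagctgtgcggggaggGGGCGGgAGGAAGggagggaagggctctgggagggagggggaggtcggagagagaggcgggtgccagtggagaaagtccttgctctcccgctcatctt
Kdr: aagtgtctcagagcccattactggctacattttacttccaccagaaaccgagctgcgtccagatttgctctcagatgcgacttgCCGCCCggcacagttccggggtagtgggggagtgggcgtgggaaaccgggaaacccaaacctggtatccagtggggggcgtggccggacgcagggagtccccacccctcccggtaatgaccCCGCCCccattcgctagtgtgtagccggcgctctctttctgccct
Tek: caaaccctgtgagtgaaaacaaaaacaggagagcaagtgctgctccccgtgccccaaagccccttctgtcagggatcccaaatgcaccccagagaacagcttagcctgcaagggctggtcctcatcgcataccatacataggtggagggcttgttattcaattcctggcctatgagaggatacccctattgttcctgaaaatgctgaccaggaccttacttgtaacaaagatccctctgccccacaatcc
Flt1 held AGGAAG at -129 and -53, TGACGTCA at -81 and GGGCGG at -158, -142 and -19 from the start, each position being that of the match's first base. Nrp1 held AGGAAG at -91 and GGGCGG at -98, Kdr held GGGCGG at -166 and -45, and none of the 4 motifs was in these letters upstream of Tek. Over all 32851 RefSeq windows of this length, 29.5% held AGGAAG, 9.99% AGATAA, 1.55% TGACGTCA and 32.7% GGGCGG. These matches describe the letters only. The sequence table had 7 of the 8 members, without Gap43.

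Wells with at least 1000 transcripts were kept, 1223 of 1536 (568 in A1/A2 libraries and 655 in EMP libraries). The kept wells summed to between 2558197 and 3559612 transcripts per A1/A2 library and between 3888853 and 5418136 per EMP library, and the median well had 6153 and 20368. The sets compared first are the 169 A1/A2 wells with Cx3cr1 and neither Cdh5 nor Plvap (44, 39, 33 and 53 in libraries 1 to 4, median 37362 transcripts), called Cx3cr1 wells here, and the 241 EMP wells with Cdh5 or Plvap and no Cx3cr1 (66, 48, 69 and 58, median 24142), called Cdh5/Plvap wells. Cdh5 is the junction protein VE-cadherin, and Plvap closes endothelial fenestrae. Of 12 macrophage markers, without Cx3cr1 and Mrc1, the summed level lay between 1343 and 1552 counts per 1000000 of the class sum (CPM) in Cx3cr1 wells and between 158 and 204 CPM in Cdh5/Plvap wells, where Adgre1 and Trem2 were at 0. Of 13 endothelial markers, without Cdh5 and Plvap, the sum lay between 83.0 and 98.2 CPM in Cx3cr1 wells, where Cldn5 and Robo4 were at 0 in 169 wells, which allows a share of up to 1.78%, and between 358 and 510.3 CPM in Cdh5/Plvap wells. Markers of endoderm summed to between 8097 and 13666 CPM in Cx3cr1 wells and between 11840 and 18810 CPM in Cdh5/Plvap wells. The plates share 1 set of well barcodes, so a barcode names no cell across libraries. CD45 is a gate for blood cells, yet 82 wells of the A1/A2 libraries and 151 of the EMP libraries were endoderm-like; the part of endoderm RNA in the results was not tested.

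Flt1 and Nrp1 were found in both kinds of well at levels whose libraries overlapped, Ednrb was higher in Cx3cr1 wells, and Kdr, Tek, Tie1, Nrp2 and Gap43 were lower there, Kdr and Tek close to 0. Because the members were chosen by these very levels, the values are a description with no test. The kind of well and the group of libraries go together here and cannot be told apart. There were 17 EMP wells with Cx3cr1 and neither Cdh5 nor Plvap. Their pooled levels were 20.5 CPM for Kdr, 38.6 for Flt1, 6.03 for Nrp1 and 4.83 for Ednrb. In 23 A1/A2 wells with Cdh5 or Plvap and no Cx3cr1 they were 20.7, 22.8, 24.9 and 6.22 CPM. Of all 9787 genes, 32.5% passed the test in this comparison. The share of all genes whose libraries did not overlap was not counted. Overlap is therefore given gene by gene, and nothing is read from how many members lack it.

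Of the VEGF receptors, Flt1 stood at 110.3, 64.9, 112.0 and 94.97 CPM in the Cx3cr1 wells of libraries 1 to 4, against 65.9, 45.9, 76.8 and 63.4 CPM in the Cdh5/Plvap wells. For Flt1, 3 of the 4 libraries of Cx3cr1 wells lay above every Cdh5/Plvap library, and library 2 lay among them. The means were 95.5 ± 21.8 and 63.0 ± 12.8 CPM (SD, n = 4 each), a log2 fold change of 0.57. That order depended on how wells were weighted: averaged over wells, so that shallow wells counted as much as deep ones, Flt1 was at 81.3 CPM in Cx3cr1 wells and 121.1 CPM in Cdh5/Plvap wells. Kdr stood at 1.26, 0.606, 0.702 and 4.65 CPM in the Cx3cr1 wells, from 2, 1, 1 and 10 transcripts, against 91.6, 68.2, 96.0 and 96.7 CPM in the Cdh5/Plvap wells. All 4 libraries of Cx3cr1 wells were far below the lowest of the others, with a log2 fold change of -5.41. Without library 4 of the A1/A2 libraries the log2 fold change of Kdr was -6.59, and with wells thinned to 10000 transcripts it was -4.37. Against wells with both Cdh5 and Plvap that of Flt1 was -0.36, the opposite sign, and with every well thinned to 10000 transcripts it was 0.02. Of these 2 receptors, whose proteins bind the same ligand, Kdr alone was near 0 in Cx3cr1 wells.

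The neuropilins also parted. Nrp1 stood at 100.2, 83.1, 79.5 and 55.8 CPM in Cx3cr1 wells, against 62.7, 32.7, 46.9 and 49.6 CPM in Cdh5/Plvap wells. Only library 4 of the Cx3cr1 wells fell inside the range of the others, and the log2 fold change was 0.68. Averaged over wells, Nrp1 was at 86.0 CPM in Cx3cr1 wells and 95.2 CPM in Cdh5/Plvap wells, the opposite order, and against wells with both Cdh5 and Plvap its log2 fold change was -0.43. With wells thinned to 10000 transcripts it was 0.26. Nrp2 stood at 18.3, 39.4, 24.6 and 24.6 CPM in Cx3cr1 wells, against 85.5, 53.6, 74.1 and 44.5 CPM in Cdh5/Plvap wells. There was no overlap, and the log2 fold change was -1.30, or -2.39 without wells above 3 times the median total. That median is over all kept wells of a library, 3763 to 9412 transcripts in A1/A2 libraries. Cx3cr1 wells had library medians of 31901 to 43990, so the cut dropped most of them and left the shallower ones.

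The receptors of the angiopoietin axis were both lower in Cx3cr1 wells. Tie1 stood at 17.6, 16.4, 14.1 and 11.6 CPM there, against 95.1, 116.3, 172.4 and 165.2 CPM in Cdh5/Plvap wells. Tek stood at 1.89, 1.82, 3.51 and 1.39 CPM in Cx3cr1 wells, from 3, 3, 5 and 3 transcripts, against 26.0, 21.6, 48.6 and 42.9 CPM in Cdh5/Plvap wells. Neither gene had overlapping libraries; the log2 fold changes were -3.21 for Tie1 and -4.05 for Tek. That of Tie1 reached -4.24 with wells thinned to 1000 transcripts, and that of Tek was -4.89 against wells with both Cdh5 and Plvap. Without wells above 3 times the median total, which dropped most Cx3cr1 wells, Tek was at 0 CPM in the shallower Cx3cr1 wells left in all 4 libraries. It was at 49.8 CPM in Cdh5/Plvap wells, and the fitted value of -8.02 rests on those zeros.

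Ednrb ran the other way, at 37.2, 32.1, 24.6 and 61.0 CPM in Cx3cr1 wells, against 12.8, 4.17, 14.5 and 5.62 CPM in Cdh5/Plvap wells. Every library of Cx3cr1 wells was above every library of Cdh5/Plvap wells, with a log2 fold change of 1.98. Gap43 stood at 23.3, 27.3, 10.6 and 29.8 CPM in Cx3cr1 wells, against 33.1, 41.1, 30.9 and 34.3 CPM in Cdh5/Plvap wells. Its libraries only just missed each other, 29.8 CPM being the highest Cx3cr1 value and 30.9 CPM the lowest Cdh5/Plvap value, and the log2 fold change was -0.58, or -1.70 against wells with both Cdh5 and Plvap and -0.37 without library 3 of the A1/A2 libraries.

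**Figure D1:**
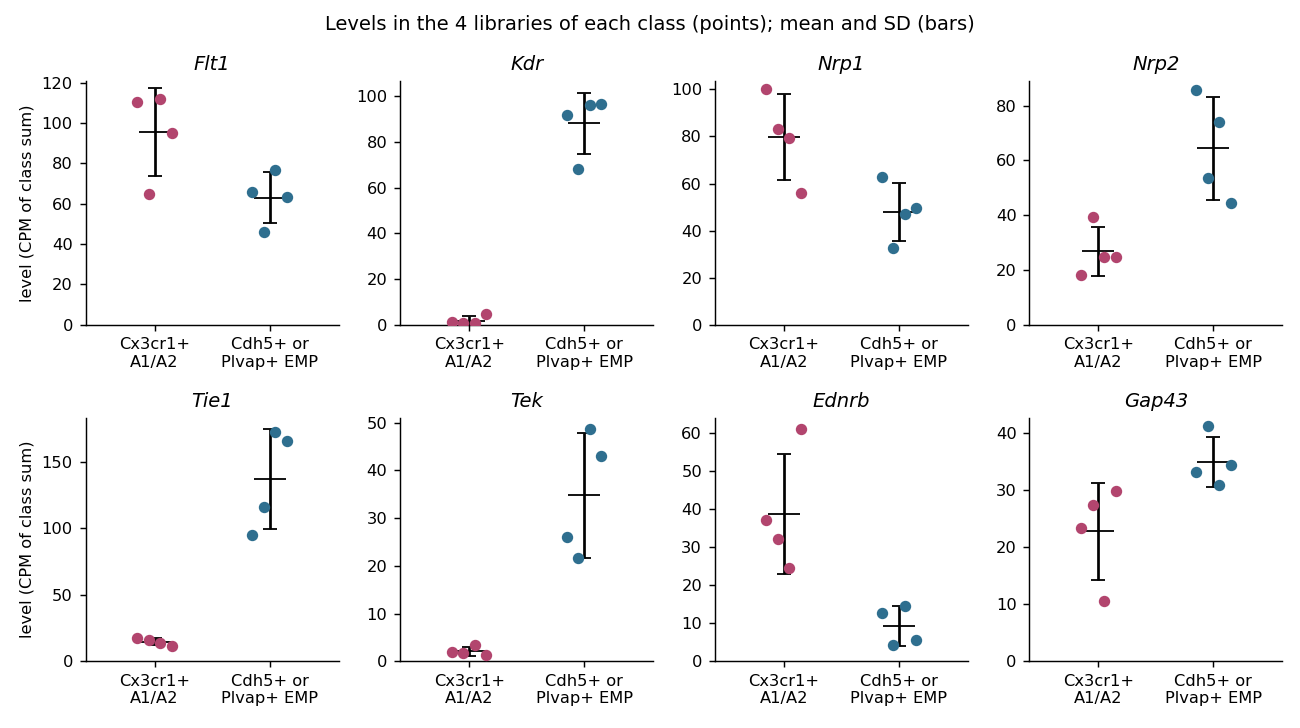
Level of each member (y axis, CPM of the class sum, starting at 0) in the 4 libraries of Cx3cr1 wells (A1/A2) and of Cdh5/Plvap wells (EMP). Points are libraries and bars are the mean and SD: Flt1 and Nrp1 overlap between the sets, Ednrb is higher in Cx3cr1 wells, and Kdr averages 1.80 CPM there and 88.1 CPM in Cdh5/Plvap wells.

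The share of wells with at least 1 transcript of a gene depends on depth, so each well was thinned to 10000 transcripts, which left 120 Cx3cr1 wells and 195 Cdh5/Plvap wells. At this depth Flt1 was found in 47.5% of Cx3cr1 wells and 39.5% of Cdh5/Plvap wells (56.8% and 58.1% unthinned, exact 95% intervals 49.0 to 64.4% and 51.6 to 64.4%). Nrp1 was found in 44.2% and 20% of them, and Ednrb in 23.3% and 8.21%. Tie1 was found in 13.3% of Cx3cr1 wells and 72.8% of Cdh5/Plvap wells, the widest gap of the 8. The shares of the remaining members were also lower in Cx3cr1 wells, Kdr in 4.17% and 44.1%, Tek in 1.67% and 31.3%, Nrp2 in 17.5% and 39.0%, and Gap43 in 16.7% and 26.2%. Unthinned, these shares were 5.92% and 65.6% for Kdr, 7.10% and 52.3% for Tek, 39.1% and 63.9% for Nrp2, 22.5% and 46.1% for Gap43, 36.7% and 84.6% for Tie1, 55.6% and 34.9% for Nrp1, and 43.2% and 18.3% for Ednrb. Endoderm-like wells of the same libraries were taken as background from free RNA for the members other than Nrp2. They overlap the wells compared: unthinned, 20 of the 82 in A1/A2 libraries were Cx3cr1 wells, and 26 of the 151 in EMP libraries were Cdh5/Plvap wells. Those of the A1/A2 libraries also held Csf1r in 69.5%. The unthinned medians were 35795 (A1/A2) and 42096 (EMP) transcripts. At the same depth, 69 endoderm-like wells of the A1/A2 libraries and 147 of the EMP libraries were left. In them Flt1 was found in 8.70% (A1/A2) and 8.16% (EMP), Nrp1 in 7.25% and 4.76%, Ednrb in 4.35% and 0%, and Gap43 in 4.35% and 5.44%. The 0% is 0 of 147 wells. Kdr reached 4.35% of A1/A2 endoderm-like wells and Tek 2.90% (2 of 69), so at this depth both shares in Cx3cr1 wells lay at or below background. Unthinned, Kdr was found in 9.76% of A1/A2 endoderm-like wells, above its 5.92% in Cx3cr1 wells. Tek went the other way, in 2.44% (2 of 82) against 7.10% of Cx3cr1 wells and 11.3% of the 106 macrophage-like wells. The shares of Kdr and Tek in Cx3cr1 wells rest on few transcripts and are not read as expression. Nrp2 was found in 39.1% of A1/A2 and 51.0% of EMP endoderm-like wells. Its level was 49.8 ± 8.66 CPM in those of the A1/A2 libraries, against 34.0 ± 7.43 CPM over all kept A1/A2 wells, and 58.6 ± 16.4 CPM in those of the EMP libraries, against 56.1 ± 10.3 CPM over all kept EMP wells (SD, n = 4 libraries each). They therefore give no background for Nrp2, whose share in Cx3cr1 wells stands without one. Tie1 was at 1.45% of A1/A2 endoderm-like wells, below its 13.3% in Cx3cr1 wells, and at 13.6% in EMP endoderm-like wells. Intervals and limits cover counting error only.

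The 8 were grouped as receptors of vessels shared with A2 cells. These values were used to choose them, so they describe that name and do not test it. At 10000 transcripts, Flt1, Nrp1, Ednrb, Gap43 (no receptor) and, at a low level, Tie1 were above the A1/A2 background in Cx3cr1 wells. Kdr and Tek were not, and Nrp2 was found with no background to set it against. On the vessel side Ednrb was low, at a pooled 12.6 CPM in 13 of 92 endothelial-like EMP wells, with 0 CPM in the lowest library. No label separates A2 from A1 cells, and Cx3cr1 detection only stands in for it. In the 27 A1/A2 wells with Cx3cr1 and also Cdh5 or Plvap, whose median was 50233 transcripts, Kdr was found in 1 of 26 wells at 10000 transcripts (3.85%), Flt1 in 61.5% and Ednrb in 53.8%.

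Summed over all kept wells of a library, where fewer wells of a type and less RNA per well cannot be told apart, Flt1 was at 101.4, 57.6, 68.8 and 100.3 CPM in A1/A2 libraries, against 52.2, 21.8, 42.3 and 39.4 CPM in EMP libraries. Ednrb was at 37.2, 28.1, 18.2 and 44.8 CPM in A1/A2 libraries, against 11.2, 3.51, 8.79 and 3.09 CPM in EMP libraries. Kdr was at 3.13, 3.93, 10.2 and 4.93 CPM in A1/A2 libraries, against 58.1, 26.0, 50.3 and 57.1 CPM in EMP libraries. The libraries of Gap43 overlapped, at 9.82 to 29.0 CPM in A1/A2 and 13.5 to 22.9 CPM in EMP libraries. Of all 11144 genes, 32.8% passed the test between whole libraries. The share of all genes without overlap was not counted here either. Log2 fold changes of A1/A2 over EMP libraries were 1.05 for Flt1, 0.98 for Nrp1, 2.21 for Ednrb, 0.12 for Gap43, -0.74 for Nrp2, -2.33 for Tie1, -2.63 for Tek and -3.14 for Kdr. Without wells above 3 times the library's median total, which dropped most Cx3cr1 wells, the value for Flt1 was 0.07 and that for Nrp2 -0.46. At the same cut, that for Kdr was -1.70 and that for Gap43 -0.30. Without library 1 of the A1/A2 libraries, that for Gap43 was -0.10.

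Vegfc, Flt4 and Ptprb were among the partners of these receptors that were lower in Cx3cr1 wells, while signal proteins passed in both directions. The test was edgeR's quasi-likelihood test with Benjamini-Hochberg adjustment at 5% over all 9787 genes, of which 17.2% passed as higher and 15.4% as lower. Of 9 tested ligands and partners of VEGF receptors and neuropilins, 4 passed, all as lower, with a median log2 fold change of -0.49, against -0.01 over all genes. The 4 were Vegfc (-4.28, adjusted p = 2.37e-07), a ligand of Flt4; Flt4 itself (-3.65), the receptor of lymphatic endothelium; and the plexins Plxnd1 (-1.55) and Plxna2 (-0.78), which signal for semaphorins. Of 4 tested Tie and endothelin partners, 3 were lower: Ptprb (-4.49, adjusted p = 2.26e-07), the phosphatase that acts on Tek, Angpt1 (-2.45), the activating ligand of Tek, and Ece1 (-1.05), which matures endothelins. Of 18 signal proteins, 4 were higher and 5 lower, among them Prkcb (3.27, adjusted p = 4.31e-05), a protein kinase C, and Dok2 (1.04), an adaptor of Tek and of blood-cell receptors, against Plcg1 (-1.43) and Grb10 (-1.42). Of 7 tested proteins related to Gap43, Marcks was higher (0.82, adjusted p = 0.00079) and Nrgn (-2.29) and Marcksl1 (-0.34) were lower. Of 16 tested endothelial genes outside the 8, 15 passed, all as lower, with a median of -2.72, led by Erg (-4.92), Esam (-5.78), Mmrn2 (-6.85) and Ramp2 (-2.07). The wells were chosen by lacking or having Cdh5 or Plvap, so lower endothelial genes go with that choice and are no separate result. How far the partners, such as Flt4 and Ptprb, go with it was not tested. Between whole A1/A2 and EMP libraries, the endothelial genes had 12 passing of 16 tested, all as lower, the VEGF partners 4 of 9, all as lower, the Tie and endothelin partners 1 higher and 2 lower of 4, the signal proteins 4 higher and 9 lower of 21, and the Gap43-related proteins 2 higher and 2 lower of 7.

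The endothelial markers move with these results, so each member was also set against the summed level of the 13 endothelial markers other than Cdh5 and Plvap. That sum lay between 83.0 and 98.2 CPM in Cx3cr1 wells and between 358 and 510.3 CPM in Cdh5/Plvap wells, which were chosen by Cdh5 or Plvap. A gene at equal level in both kinds of well therefore has the higher ratio in Cx3cr1 wells. The ratios are a description with no test. For Flt1 the ratio lay between 0.781 and 1.15 in Cx3cr1 wells and between 0.124 and 0.181 in Cdh5/Plvap wells. For Nrp1 it lay between 0.591 and 1.02 in Cx3cr1 wells and between 0.0915 and 0.172 in Cdh5/Plvap wells, and for Ednrb between 0.254 and 0.647 and between 0.0110 and 0.0351. For Kdr it lay between 0.00724 and 0.0492 in Cx3cr1 wells and between 0.189 and 0.251 in Cdh5/Plvap wells, and for Tie1 between 0.123 and 0.197 and between 0.261 and 0.401. For Tek it lay between 0.0148 and 0.0362 in Cx3cr1 wells and between 0.0603 and 0.113 in Cdh5/Plvap wells. For Nrp2, whose libraries overlapped, it lay between 0.186 and 0.475 in Cx3cr1 wells and between 0.0872 and 0.235 in Cdh5/Plvap wells. For Gap43, which also overlapped, it lay between 0.109 and 0.329 in Cx3cr1 wells and between 0.0671 and 0.115 in Cdh5/Plvap wells. By the median ratio, Flt1, Nrp1, Ednrb, Nrp2 and Gap43 were higher in Cx3cr1 wells, and Kdr, Tie1 and Tek lower. For Nrp2 and Gap43 this went against the order of their levels. The part of endothelial RNA in these results was not tested. Egfl7, at 43.3 CPM in Cx3cr1 wells and 51.3 CPM in Cdh5/Plvap wells, made up much of the endothelial sum of the Cx3cr1 wells, while Esam was at 0.88 and 51.4 CPM.

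Wells were also clustered within each group of libraries with the members left out of the clustering genes. Each cluster's genes were read from the cells clustered, so these levels too are a description. In the macrophage-like cluster (106 wells, median 43670 transcripts), which held 76 of the 169 Cx3cr1 wells, Flt1 was at 158 ± 10.2 CPM, Nrp1 at 96.1 ± 15.7 CPM, Ednrb at 53.0 ± 9.48 CPM and Gap43 at 32.8 ± 11.9 CPM (SD, n = 4 libraries). Tie1 was at 21.0 ± 3.13 CPM there, Nrp2 at 15.7 ± 3.36 CPM, Tek at 3.45 ± 1.61 CPM and Kdr at 2.14 ± 2.46 CPM. Another 21 of the Cx3cr1 wells lay in an unnamed A1/A2 cluster of 25 wells with a median of 91106 transcripts. Flt1 was at 40.0 ± 9.15 CPM in that cluster, Nrp1 at 61.4 ± 4.41 CPM and Nrp2 at 38.0 ± 2.03 CPM (SD, n = 3 libraries). Ednrb was at 21.8 ± 14.5 CPM and Kdr at 6.55 ± 4.73 CPM in it. In the endothelial-like cluster of the EMP libraries (92 wells, median 14891), which held 85 of the 241 Cdh5/Plvap wells, Flt1 was at 194 ± 41.8 CPM, Kdr at 289 ± 61.8 CPM, Nrp1 at 160.3 ± 35.1 CPM and Nrp2 at 133 ± 19.5 CPM. Tie1 was at 322 ± 110.0 CPM there, Tek at 91.2 ± 26.1 CPM, Gap43 at 132 ± 57.8 CPM and Ednrb at 11.02 ± 8.13 CPM. For Flt1 the endothelial-like cluster came first and the macrophage-like cluster second, and their libraries overlapped (160.3 to 249 and 148 to 171 CPM). For Ednrb the macrophage-like cluster was above the endothelial-like one with no overlap (39.2 to 60.0 and 0 to 19.5 CPM). An unnamed cluster of 107 EMP wells, led by Rac2, Cdk6 and Prtn3, held 61 of the Cdh5/Plvap wells; in it Tie1 was at 156 ± 19.5 CPM, Flt1 at 57.9 ± 17.3 CPM and Kdr at 56.9 ± 12.7 CPM, while Nrp1 was at 3.36 ± 3.81 CPM and Gap43 at 9.13 ± 3.86 CPM. Each of the 5 was lower there than in the endothelial-like cluster. The 12 mesenchyme-like wells held Nrp1 in 12 of 12 (pooled 241 CPM) and Nrp2 in 12 of 12 (169 CPM), with Ednrb in 10 (51.4 CPM).

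**Figure D2:**
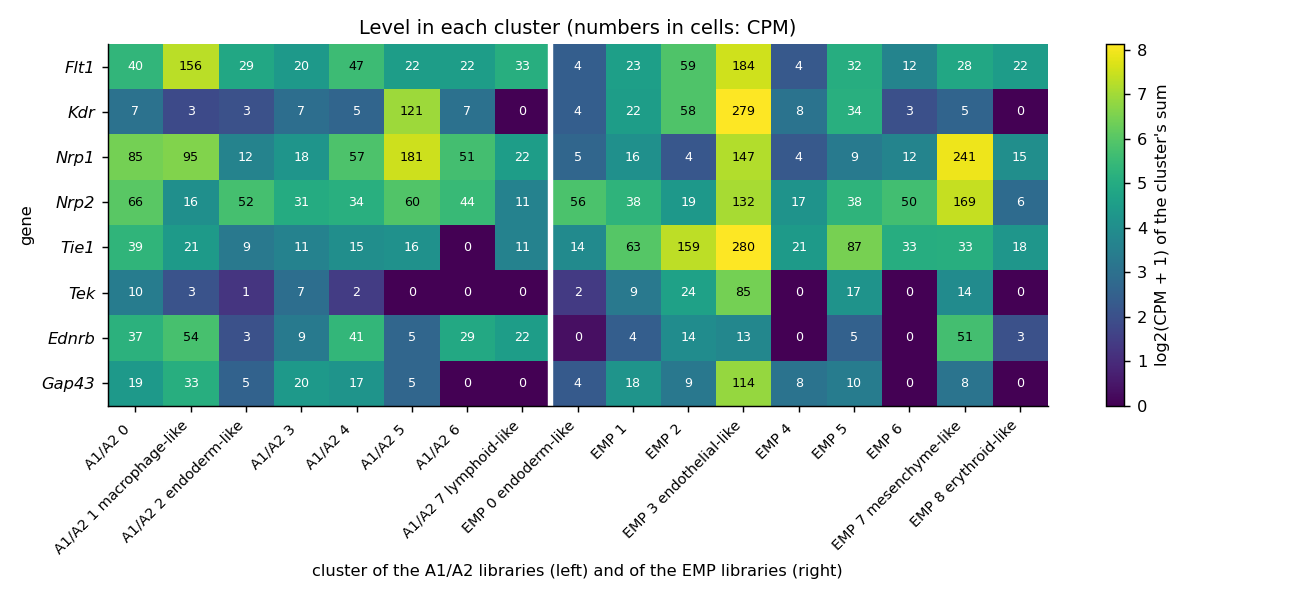
Level of each member (rows) in every cluster of the A1/A2 libraries and of the EMP libraries (columns); the number in each cell is the CPM of the cluster's sum and the colour is log2(CPM + 1). Kdr, Tie1 and Tek are highest in the endothelial-like cluster. Flt1 and Nrp1 stand high both there and in the macrophage-like cluster, while Ednrb is higher in the macrophage-like than in the endothelial-like cluster.

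At equal depth, fewer of the 8 genes were found in a Cx3cr1 well than in a Cdh5/Plvap well. At 10000 transcripts the mean number of the 8 genes found was 1.68 in Cx3cr1 wells and 2.81 in Cdh5/Plvap wells, and the median was 2 in both. None of the 8 was found in 17.5% of Cx3cr1 wells and 5.13% of Cdh5/Plvap wells; 5 or more were found in 0 of 120 Cx3cr1 wells, which allows a share of up to 2.50%, and in 17.4% of Cdh5/Plvap wells. Unthinned, 5 or more were found in 18.9% and 48.5%. The most frequent pair in Cx3cr1 wells was Flt1 with Nrp1, in 27 of 120 wells (22.5%), followed by Flt1 with Ednrb and Nrp1 with Ednrb (14.2% each). In Cdh5/Plvap wells the most frequent pairs were Kdr with Tie1 (38.5%) and Flt1 with Tie1 (31.3%). Flt1 and Kdr were found together in 1.67% of Cx3cr1 wells. Within the clusters the same pairs led, Flt1 with Nrp1 in 35.6% of macrophage-like wells and Kdr with Tie1 in 68.8% of endothelial-like wells, where the mean number of members per well was 2.13 and 4.53.

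**Figure D3:**
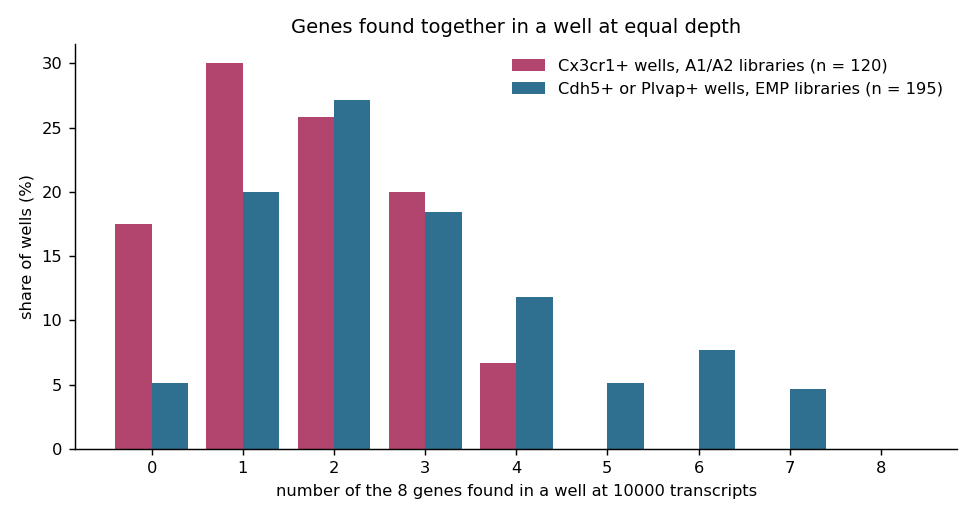
Number of the 8 genes found in a well (x axis) at 10000 transcripts per well, as a share of wells in percent (y axis), for 120 Cx3cr1 wells of the A1/A2 libraries and 195 Cdh5/Plvap wells of the EMP libraries. No Cx3cr1 well reaches 5 genes, while 17.4% of Cdh5/Plvap wells do.

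Over 20 sums of library and class, which share libraries, depth and the 2 kinds of cell, the levels of some members moved together. The highest values of Pearson's r of log2(CPM + 1) were 0.84 for Kdr and Tie1, 0.82 for Flt1 and Ednrb, 0.80 for Nrp1 and Ednrb, 0.78 for Tie1 and Tek and 0.72 for Flt1 and Nrp1. It was -0.18 for Flt1 and Kdr and lowest, at -0.44, for Kdr and Ednrb. Among 7749 genes compared, the patterns most like Flt1 were those of Pla2g4a (r = 0.90), a phospholipase, Wsb1 and Uck2. Tspan18, a tetraspanin, was nearest to Kdr (0.94), before Tsc22d1 and Car2, and second to Tie1 after Gng11 (0.93), before Smc5. Nearest to Nrp1 were Rcsd1 (0.91), Foxp1 and Flna; to Nrp2 Fnbp1l (0.85), Foxj2 and Tfdp2; to Tek Prkcdbp (0.90), Rasip1 and Lyve1; to Ednrb Myo5a (0.91), Vsir and Akna; and to Gap43 Marcksl1 (0.86), Arap3 and Vim.

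Mrc1, the macrophage mannose receptor, divides the 196 A1/A2 wells with Cx3cr1 in a way that the choice of the members did not use, and Ednrb and Gap43 were higher in the wells that had it. Ednrb stood at 63.2, 49.1, 35.7 and 78.3 CPM in the 101 wells with Mrc1, against 15.1, 17.1, 6.20 and 10.8 CPM in the 95 wells without. Gap43 stood at 49.1, 37.4, 16.2 and 34.3 CPM in wells with Mrc1, against 10.1, 2.28, 0 and 8.08 CPM in wells without. For both genes all 4 libraries were higher with Mrc1, and the sides did not overlap. With library as a block, edgeR gave a log2 fold change of 2.11 ± 0.25 (SE) for Ednrb (adjusted p = 0.00014, over 8339 genes) and 2.68 ± 0.36 for Gap43 (adjusted p = 0.000602). That is 2 of the 6 members tested, both as higher, where 0.636% of all genes tested passed, 0.408% as higher and 0.228% as lower. That background count of 53 genes was unsteady (35 without library 1, 20 without library 2 and 251 without library 4), while both members passed in each of those fits.

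Flt1 and Nrp1 did not pass between the same wells. Flt1 stood at 117.6, 72.5, 92.0 and 93.5 CPM with Mrc1, against 124, 75.4, 135 and 116 CPM without, and Nrp1 at 89.5, 73.3, 76.6 and 54.0 CPM against 114.9, 75.5, 84.8 and 70.0 CPM. Both were lower with Mrc1 in all 4 libraries, by log2 fold changes of -0.30 ± 0.14 (adjusted p = 0.540) and -0.29 ± 0.14 (adjusted p = 0.578), so a change was not shown. Within the macrophage-like cluster Flt1 stood at 116 to 145 CPM with Mrc1 and 158 to 341 CPM without, with no overlap. Nrp1 overlapped there, at 77.4 to 113 CPM and 81.9 to 173 CPM. Flt1 passed in 0 of the 13 alternative settings that could test it. Nrp2 (-0.25, adjusted p = 0.849) and Tie1 (-0.21, adjusted p = 0.923) did not pass either. Kdr, with 13 transcripts with Mrc1 and 8 without, and Tek, with 10 and 8, did not pass the filter on low counts.

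Depth and the kind of well moved with the Mrc1 split, and their part in the result was not tested. The median was 50857 transcripts with Mrc1 and 25159 without. Of the wells with Mrc1 59 of 101 were macrophage-like, and of those without 35 of 95. The 12 macrophage markers other than Cx3cr1 and Mrc1 summed to between 1555 and 1824 CPM with Mrc1 and between 777 and 1284 CPM without, with no overlap. Endoderm markers summed to between 5594 and 11004 CPM with Mrc1 and between 9001 and 17254 CPM without, and the 13 endothelial markers to between 85.7 and 103 CPM and between 79.9 and 93.0 CPM. At 10000 transcripts per well, Ednrb was found in 31 of 90 wells with Mrc1 (34.4%) and 11 of 56 without (19.6%), and Gap43 in 22.2% and 5.36%. Within the macrophage-like cluster, Ednrb stood at 81.7, 70.3, 52.9 and 88.3 CPM with Mrc1, against 25.8, 19.9, 5.76 and 7.61 CPM without, with a log2 fold change of 2.25 (adjusted p = 5.05e-05, from the 3 libraries with enough wells on both sides); that of Gap43 was 2.26 (adjusted p = 0.000367). With no block for library, Gap43 had an adjusted p of 0.0875 and Ednrb one of 0.00845.

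Runx1, the transcription factor of blood-forming endothelium, divides the 241 Cdh5/Plvap wells, again by a measure the choice did not use. Flt1, Kdr, Nrp1, Nrp2 and Gap43 were lower in the 165 wells with Runx1 than in the 76 without. In all, 5 members were lower and 1 higher of 7 tested, where 17.8% of the 8107 genes tested were lower and 15.3% higher, 33.1% together. Kdr stood at 55.0, 56.9, 84.1 and 68.3 CPM with Runx1, against 191.6, 104.0, 150.3 and 197.1 CPM without. Nrp1 stood at 49.7, 22.9, 28.2 and 28.2 CPM with Runx1, against 98.3, 63.6, 132.5 and 125 CPM without. In both genes the highest library with Runx1 was below the lowest without. The log2 fold changes were -1.47 ± 0.15 for Kdr (edgeR, adjusted p = 7.75e-10) and -1.80 ± 0.19 for Nrp1 (adjusted p = 1.42e-09).

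Nrp2 stood at 61.4, 40.4, 50.9 and 35.4 CPM with Runx1, against 151.5, 95.3, 181 and 76.5 CPM without. Gap43 stood at 17.0, 34.9, 27.7 and 21.6 CPM with Runx1, against 77.0, 60.6, 45.8 and 78.8 CPM without. Neither overlapped, and the log2 fold changes were -1.55 ± 0.15 (adjusted p = 1.37e-10) and -1.61 ± 0.22 (adjusted p = 4.54e-07). Flt1 stood at 55.5, 42.2, 68.6 and 50.5 CPM with Runx1, against 94.3, 57.8, 114.6 and 109 CPM without. It was lower with Runx1 in each of the 4 libraries although the ranges overlapped, with a log2 fold change of -0.94 ± 0.16 (adjusted p = 7.57e-06).

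Tie1 went against the others. It stood at 103.6, 127.5, 189 and 179 CPM with Runx1, against 71.7, 80.9, 94.2 and 115.9 CPM without, higher in all 4 libraries, with a log2 fold change of 0.56 ± 0.13 (adjusted p = 0.00109). That call was kept in 9 of the 13 alternative settings that could test it, including each with 1 library left out. It was lost without wells above 3 times the median total (0.04, adjusted p = 0.913) and at 10000 transcripts (-0.08, adjusted p = 0.825). It was also lost in wells with both Cdh5 and Plvap (-0.11, adjusted p = 0.799) and within the endothelial-like cluster (-0.23, adjusted p = 0.591). Tek, at 23.8 to 47.0 CPM with Runx1 and 11.5 to 56.0 CPM without, did not pass (-0.26 ± 0.22, adjusted p = 0.390), though in wells with both Cdh5 and Plvap it was lower by a log2 fold change of -1.02 (adjusted p = 0.0492). Ednrb, at 10.7, 5.5, 12.7 and 7.22 CPM with Runx1 and 18.6, 0, 22.9 and 0 CPM without, did not pass the filter on low counts.

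The wells on either side of the Runx1 split differed in kind as well. Of the wells with Runx1, 51 were endothelial-like, 61 lay in the cluster led by Rac2, Cdk6 and Prtn3 and 35 in EMP cluster 5; of those without, 34 were endothelial-like, 0 lay in either of those 2 clusters and 19 were endoderm-like. The 13 endothelial markers summed to between 264 and 452 CPM with Runx1 and between 479 and 716 CPM without, progenitor markers to between 411 and 603 CPM and between 89.5 and 125 CPM, and endoderm markers to between 10554 and 17370 CPM and between 17755 and 26531 CPM. The median well had 27368 and 12263 transcripts. Within the endothelial-like cluster alone, the 5 lower members were again lower. Depth still differed there, with medians of 20543 transcripts with Runx1 and 9768 without, and its part was not tested. Endothelial genes outside the 8 were lower with Runx1 there too. Mean levels were 71.7 against 217 CPM for Cldn5, 26.9 against 110 CPM for Emcn, 95.4 against 173 CPM for Pecam1 and 127 against 190 CPM for Esam. Kit went the other way, at 155 against 64.7 CPM. Kdr stood there at 128, 201.2, 269 and 138 CPM with Runx1, against 531, 504, 1036 and 559 CPM without. Flt1 stood at 114.1, 168.7, 159.6 and 107.1 CPM with Runx1, against 244, 296, 832 and 332 CPM without. In neither gene did the sides overlap. Log2 fold changes in that cluster were -1.94 for Kdr (adjusted p = 7.69e-08), -1.60 for Flt1 (adjusted p = 3.13e-05), -1.84 for Nrp1, -2.34 for Nrp2 and -1.71 for Gap43. At 10000 transcripts per well, over all Cdh5/Plvap wells, they were -1.71 for Flt1, -2.08 for Kdr, -2.24 for Nrp1, -2.44 for Nrp2 and -1.64 for Gap43. In wells with both Cdh5 and Plvap, Gap43 missed the threshold (-1.84, adjusted p = 0.0624). The share of wells did not follow the level for Kdr: at 10000 transcripts it was found in 44.1% of 152 wells with Runx1 and 44.2% of 43 without. For Nrp1 the shares were 15.1% and 37.2%, for Nrp2 31.6% and 65.1%, and for Tie1 80.3% and 46.5%.

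**Figure D4:**
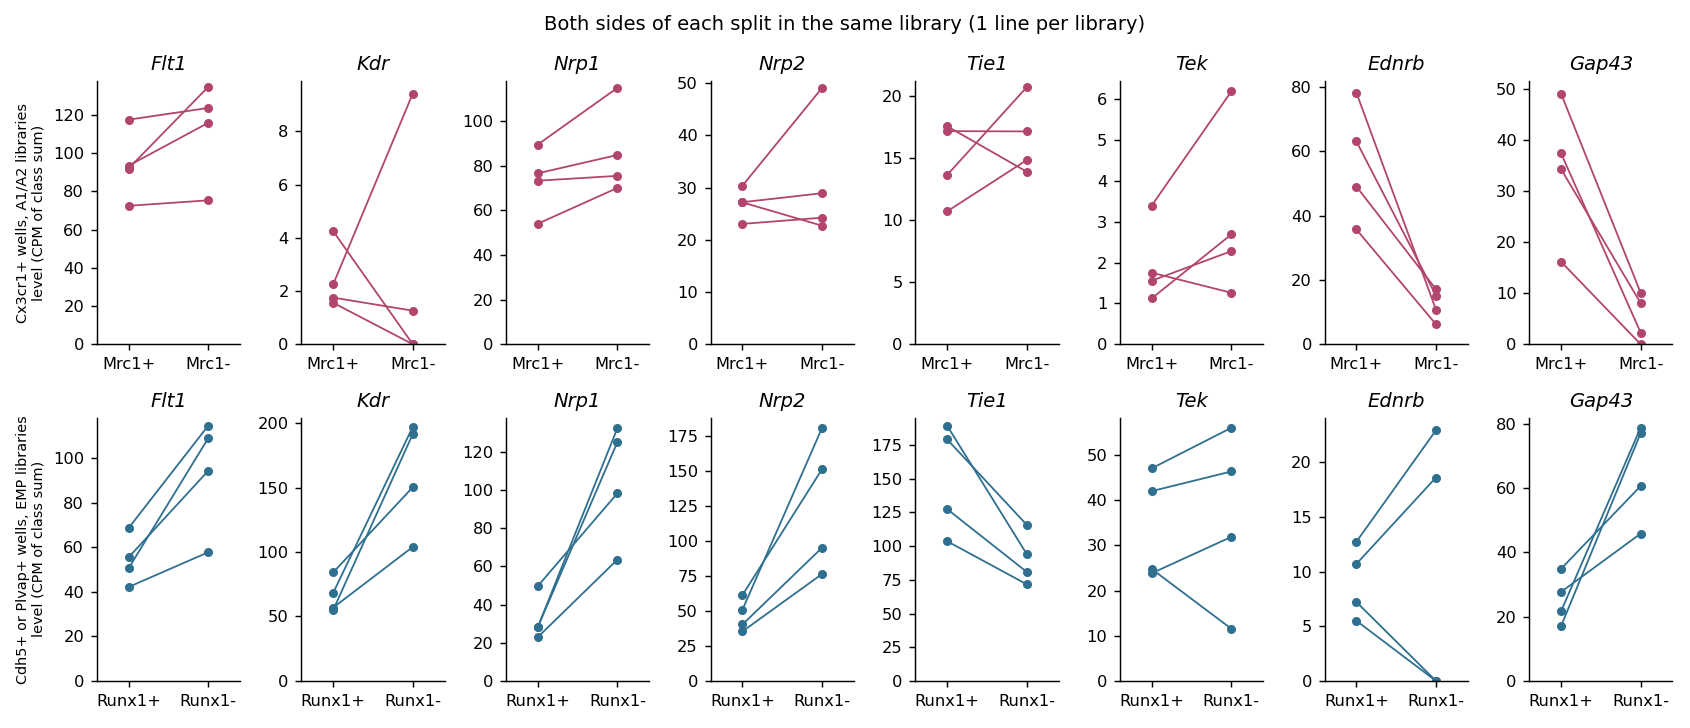
Level (y axis, CPM of the class sum, starting at 0) of each member on both sides of a split in the same library, 1 line for each library. In the upper row, Ednrb and Gap43 are higher with Mrc1 in all 4 A1/A2 libraries; in the lower row, Flt1, Kdr, Nrp1, Nrp2 and Gap43 are lower with Runx1, and Tie1 higher, in all 4 EMP libraries.

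**Figure D5:**
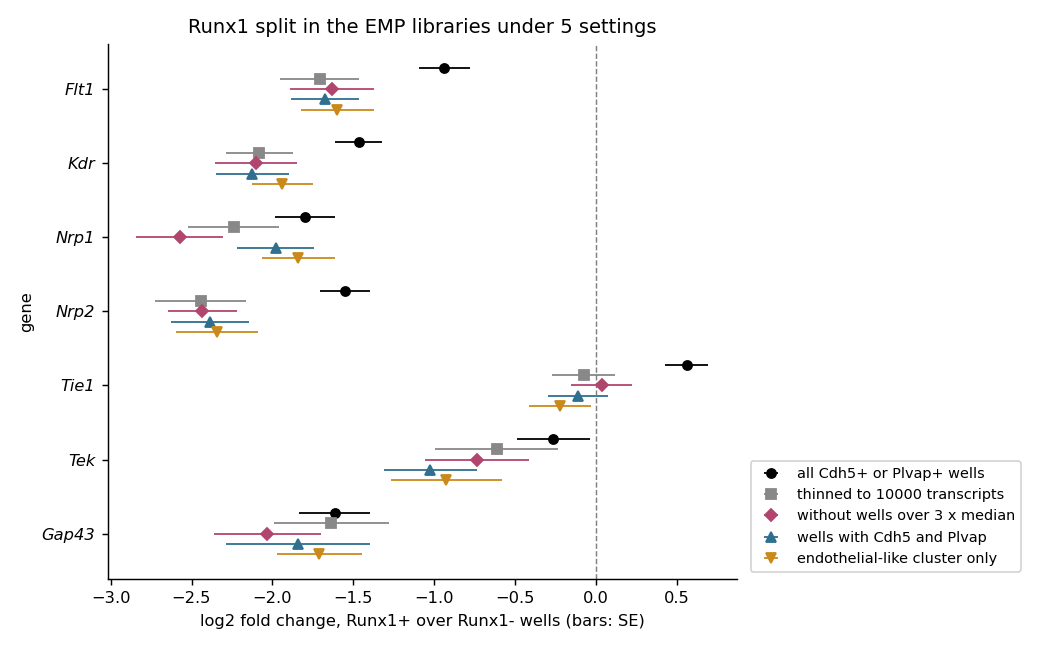
Log2 fold change of wells with over wells without Runx1 (x axis, bars are SE) for the 7 tested members (y axis) under 5 choices of wells and depth. Kdr, Flt1, Nrp1 and Nrp2 stay below 0 in all 5, while Tie1 moves from 0.56 over all Cdh5/Plvap wells to between -0.23 and 0.04 in the others.

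Partner genes were measured in the same 2 splits. Between Cx3cr1 wells with and without Mrc1, 0 of 6 tested VEGF and neuropilin partners passed in edgeR (Plxna2 at -0.81, adjusted p = 0.50), with 1 of the 6 at an unadjusted p under 0.05 and 0 passing in DESeq2. Of 2 tested Tie and endothelin partners 0 passed in edgeR, 0 were at an unadjusted p under 0.05 and 0 passed in DESeq2. Of 17 signal proteins, 7 Gap43-related proteins and 4 endothelial genes, 1 each passed. The 3 that passed were all higher with Mrc1: Dok2 (1.14, adjusted p = 0.0205), Marcksl1 (0.70, adjusted p = 0.00436) and Lyve1 (2.47, adjusted p = 0.000825), the hyaluronan receptor of lymphatic endothelium and of some macrophages. Between Cdh5/Plvap wells with and without Runx1, 1 of 8 tested VEGF and neuropilin partners was higher, Vegfc (1.25), and 3 were lower, Plxnb2 (-1.10, adjusted p = 2.65e-05), Plxna2 (-0.81) and Vegfa (-0.67). All 4 tested Tie and endothelin partners passed, Angpt1 (2.84, adjusted p = 6.45e-08) and Ece2 (0.84) as higher, Ptprb (-1.37) and Ece1 (-1.18) as lower. Of 18 signal proteins, 6 were higher, with Plcg2 (2.46), Dok2 (3.36) and Prkca (2.22) among them, and 4 lower, among them Gab1 (-0.75). Of 7 Gap43-related proteins, Nrgn was higher (3.09, adjusted p = 1.21e-13), and Marcks (-1.32) and Basp1 (-1.25) lower. Of 16 endothelial genes, 1 was higher and 8 lower, including Ramp2 (-1.55), Stab2 (-2.81), Cldn5 (-1.92) and Cd93 (-0.87), with a median of -0.83, against 0.01 over all genes.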

How the data were processed

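Libraries were 4 of A1 and A2 cells and 4 of EMP cells, numbered 1 to 4. The authors deposited estimated counts of transcripts for each gene in each well, corrected for collisions among 4096 molecular identifiers: inverting that correction gave whole identifiers for 100% of values within 1e-06. BWA 0.6.2-r126 and Seurat are named in the submitters' processing notes without a role; no source used here names the genome build or annotation. A deposited table of the whole series held identical wells (165, 175, 160 and 189 of A1/A2 libraries 1 to 4) and was not used otherwise.

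Wells under 1000 transcripts were left out; no doublet caller was run, since cells were sorted singly. Counts were summed per library and class, a sum needing 5 wells, rounded, and tested with edgeR 4.0.16 (R 4.3.3; TMM, filterByExpr, robust quasi-likelihood fit, Benjamini-Hochberg over all genes); standard errors are the log2 fold change over the root of F. The genes that define a split were not tested. Both sides of the Mrc1 and Runx1 splits come from the same libraries, so library was a block. Clusters came from scanpy 1.11.5 and leidenalg 0.10.2 (log counts per 10000, 2000 variable genes without the members, 20 components, 15 neighbours, resolution 0.6) in Python 3.11.15, named from marker lists. Where a fold is given, it is the named group over its comparison. The tests were checked on simulated data with 200 changed genes. The members and lists, and the rule for naming partners (in each list, up to 4 genes passing with the smallest p), were chosen with earlier results of these data known; the settings at 10000 transcripts and within 1 cluster were added after the data were seen. Libraries of a group differed beyond sampling noise (chi-square per degree of freedom 5.77 to 14.4).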

Additional observations from a re-analysis of the deposited data

Results flagged for a closer look

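Kdr in library 4 of the A1/A2 libraries stood apart from the other 3 libraries, with a gap to the nearest that was large against the range of the 4. In Cx3cr1 wells it was at 4.65 CPM, from 10 transcripts, and the next library was at 1.26 CPM. In wells with Cx3cr1 and without Mrc1 it was at 9.43 CPM, from 7 transcripts, and the next library was at 1.26 CPM. These values rest on shared wells. Of 64 groups of 4 libraries examined, these 2 stood out, and chance alone marks about 1 in 20 groups. Without that library, the log2 fold change of Kdr in Cx3cr1 wells over Cdh5/Plvap wells was -6.59, against -5.41 with it.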

How the results depend on the processing

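Counts of genes passing at 5% differed widely between settings. Between A1/A2 and EMP libraries 3651 passed; 786 did without wells above 3 times the median total, 133 at 1000 transcripts per well, 1394 at 10000, and 2596 to 4087 with 1 library left out. Between Cx3cr1 and Cdh5/Plvap wells 3185 passed, with 468, 75 and 1169 under the same 3 settings and 2591 to 3663 with 1 library left out. For the Mrc1 split 53 passed; 20 did with DESeq2 1.42.0, 179 with no filter on low counts, 22 at 1000 transcripts, 10 at 10000, 10 with no replicate block and 20 to 251 with 1 library left out. Without deep wells 0 of 1077 genes passed there in edgeR (45 at an unadjusted p under 0.05), and DESeq2 was not run on those wells. In that setting 2 libraries had enough wells on both sides, and the cause of the 0 was not tested. For the Runx1 split 2680 passed; 1278 did with DESeq2, 87 at 1000 transcripts, 1123 at 10000, 189 in wells with both Cdh5 and Plvap, 217 in the endothelial-like cluster and 1977 to 2498 with 1 library left out. Fewer genes tested and fewer wells go with the thinned and narrowed settings; the cause of the DESeq2 differences was not tested.

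Against wells with both Cdh5 and Plvap, Flt1 (-0.36) and Nrp1 (-0.43) were lower in Cx3cr1 wells, the opposite sign. Tie1 in the Runx1 split turned to -0.11 in wells with both genes, -0.077 at 10000 transcripts and -0.23 in the endothelial-like cluster; Gap43 there missed the threshold in wells with both genes (-1.84, adjusted p = 0.0624). The cause was not tested. Flt1, Kdr, Nrp1 and Nrp2 passed in the Runx1 split under all 13 alternatives that could test them. In the Mrc1 split Ednrb passed under all 12 that could test it and Gap43 under 11 of 12.

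The labels do not say what the number shared by an A1/A2 and an EMP library stands for. Same-number deviations correlated at 0.282, 0.538, -0.0213 and 0.267, so for libraries 1, 2 and 4, but not 3, the highest correlation was with the same number, a hint from the data; the libraries were not taken as pairs. With a replicate block, 4736 genes passed between whole libraries and 3808 between Cx3cr1 and Cdh5/Plvap wells; with no replicate block, 2135 passed in the Runx1 split. Kdr and Tek were found in Cx3cr1 wells in at most 10 and 5 transcripts per library, and the part of depth in this was not tested.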

Other observations

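Ligands of these receptors were also measured. Vegfa was at 48.0 ± 9.47 CPM in endoderm-like wells of the A1/A2 libraries and 54.2 ± 7.15 CPM in those of the EMP libraries (SD, n = 4 libraries each), against 2.56 ± 1.25 CPM in macrophage-like and 22.1 ± 6.76 CPM in endothelial-like wells. Vegfb was at 58.5 ± 5.52 CPM in macrophage-like wells and 69.9 ± 11.8 CPM in endothelial-like wells. Angpt1, the ligand of Tek, was at 11.996 ± 5.54 CPM in macrophage-like wells, 73.3 ± 15.1 CPM in the EMP cluster led by Rac2, Cdk6 and Prtn3 and 56.6 ± 16.8 CPM in endothelial-like wells. Edn1, a ligand of Ednrb, was at 0.67 ± 0.85 CPM in macrophage-like and 8.15 ± 4.81 CPM in endothelial-like wells, from 3 and 15 transcripts.

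A small unnamed A1/A2 cluster led by Lyz1, Ctss and Chil3 (23 wells, median 7490 transcripts) held Kdr at a pooled 121 CPM, but from 22 transcripts in 4 wells. Nrp1 was found in 17 of its 23 wells and Tek in 0 of 23, which allows a share of up to 13.04%.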
